A study of Mus musculus with 14 samples.

Results

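Matrix metalloproteinases are zinc-dependent proteases that cut collagens, proteoglycans, basement membrane and cell-surface proteins. They are made as inactive precursors, are opened by other proteases or by furin-like convertases, and are held in check by the tissue inhibitors Timp1 to Timp4. In the lung of the first postnatal week they take part in the matrix remodelling that accompanies the division of saccules into alveoli. The members described here were the 10 genes Mmp2, Mmp3, Mmp7, Mmp10, Mmp11, Mmp13, Mmp14, Mmp15, Mmp16 and Mmp19, chosen by name because fibroblasts, epithelium and endothelium are their main sources, and each had 1 of the 21212 probe sets of the array. Their Entrez gene numbers, which name the probe sets, were 17390 for Mmp2, 17392 for Mmp3, 17393 for Mmp7, 17384 for Mmp10, 17385 for Mmp11, 17386 for Mmp13, 17387 for Mmp14, 17388 for Mmp15, 17389 for Mmp16 and 58223 for Mmp19.

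The 14 arrays, in 2 sets, each held RNA from lung tissue of a mouse aged 6 days (P6). The Atxn1l set held 4 knockouts (labelled Atxn1L -/-) and 4 wild types, and the Atxn1 set held 3 knockouts (labelled Atxn1 -/-) and 3 wild types, all labelled C57BL/6J. The mice came from intercrosses of heterozygotes of the 1 gene or the other, so each knockout was compared with the wild types of its own set. The labels give neither the sex nor the litter of a mouse; the construction of the alleles was not stated in them. The values are log2 levels from robust multi-array averaging (RMA), which the authors ran separately on the 2 sets, so a level in 1 set cannot be held against a level in the other. A level in bulk lung tissue also cannot tell fewer cells of a type apart from less RNA per cell.

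None of the 10 metalloproteinases passed the test in either knockout. In the Atxn1l knockout the largest differences were 0.13 for Mmp13, a secreted collagenase, and 0.12 for Mmp14, the membrane-anchored activator of Mmp2. There 7 of the 10 lay above 0. In the Atxn1 knockout 5 lay above 0 and 5 below, from -0.14 for Mmp3 to 0.05 for Mmp11. The 95% intervals of the limma fit, each for 1 gene alone, spanned at most from 1.22-fold lower (Mmp3) to 1.19-fold higher (Mmp13) without Atxn1l. Without Atxn1 they spanned from 1.31-fold lower (Mmp3) to 1.16-fold higher (Mmp11). Mmp3 and Mmp13 were among the dimmest 25% of probe sets in both sets, where RMA can compress changes. For them the intervals bound the change in array values, and the change in RNA may be larger.

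The promoters of the members fell into contrasting kinds, shown here because Ets factors and AP-1 are known regulators of several metalloproteinase genes and Capicua, the repressor that ataxin-1 and ataxin-1-like bind, is a DNA-binding protein. RefSeq promoters of the mouse assembly GRCm38.p6 were at hand for 7 of the 10 members (Mmp3, Mmp7, Mmp10, Mmp11, Mmp13, Mmp14 and Mmp15). The 150 bases before the transcript start are printed 5′ to 3′ on the gene's strand, and capitals mark matches on either strand. The motif of AP-1, the Fos and Jun dimer, was searched as TGANTCA. That of the PEA3 group of Ets factors was searched as its core, AGGAAG. The box that places the start of transcription was searched as TATAAA. The first 4 are those of Mmp13 (chr9:7272364-7272513), Mmp3 (chr9:7445672-7445821), Mmp10 (chr9:7502192-7502341) and Mmp7 (chr9:7691940-7692089), all on the plus strand of a metalloproteinase cluster on chromosome 9.
Mmp13: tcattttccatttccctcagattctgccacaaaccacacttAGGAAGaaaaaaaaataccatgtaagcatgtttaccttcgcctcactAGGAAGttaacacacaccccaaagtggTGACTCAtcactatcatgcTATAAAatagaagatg
Mmp3: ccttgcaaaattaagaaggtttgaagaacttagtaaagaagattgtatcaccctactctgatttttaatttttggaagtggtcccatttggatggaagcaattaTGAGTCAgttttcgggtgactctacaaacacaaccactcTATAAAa
Mmp10: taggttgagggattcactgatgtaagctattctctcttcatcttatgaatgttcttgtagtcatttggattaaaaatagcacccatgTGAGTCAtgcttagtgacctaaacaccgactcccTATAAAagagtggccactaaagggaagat
Mmp7: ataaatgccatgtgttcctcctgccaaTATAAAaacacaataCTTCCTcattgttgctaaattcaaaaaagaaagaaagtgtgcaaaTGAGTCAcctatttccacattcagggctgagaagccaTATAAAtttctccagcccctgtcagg

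The same stretches of Mmp11 (chr10:75932503-75932652, minus strand), Mmp14 (chr14:54431448-54431597, plus strand) and Mmp15 (chr8:95352146-95352295, plus strand) held no match to any of these motifs.
Mmp11: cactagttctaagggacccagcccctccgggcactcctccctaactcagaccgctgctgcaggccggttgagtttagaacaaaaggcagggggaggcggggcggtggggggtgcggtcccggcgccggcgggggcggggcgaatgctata
Mmp14: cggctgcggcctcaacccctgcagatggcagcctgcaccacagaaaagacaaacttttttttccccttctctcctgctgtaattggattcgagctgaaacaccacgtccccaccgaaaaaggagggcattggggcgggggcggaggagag
Mmp15: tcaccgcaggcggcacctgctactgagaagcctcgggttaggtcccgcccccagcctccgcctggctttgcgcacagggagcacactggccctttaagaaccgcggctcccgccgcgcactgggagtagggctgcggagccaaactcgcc

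Both strands of the 300 bases around the start (250 before, 50 after) were searched. An AP-1 match was present in 4 of the 7 promoters, those of the chromosome 9 cluster, against 7.81% of 32851 RefSeq promoters of the same length. It began 35 bases before the start in Mmp13, 46 in Mmp3, 63 in Mmp10 and 63 in Mmp7. A TATAAA match was present in the same 4 promoters, against 13.6% of all promoters, and began 16, 7, 29 and 26 bases before the start in that order. Mmp7 had a further TATAAA match 123 bases before the start, and its later start in the same table had neither motif. PEA3 matches were found in Mmp13 (109 and 62 bases before the start), Mmp3 (183 bases before), Mmp7 (108 bases before) and Mmp14 (209 bases before), 4 of 7 promoters against 35.4% of all. The octamer of Capicua (TGAATG followed by AA or GA) was found in 0 of 7 and in 2.47% of all promoters. The 250 bases before the start were 37.2% to 40.4% G or C in the 4 cluster promoters and 55.2% to 63.6% in Mmp11, Mmp14 and Mmp15. No match overlapped another, and a match is a description of the letters, not a measured binding site.

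**Figure D1:**
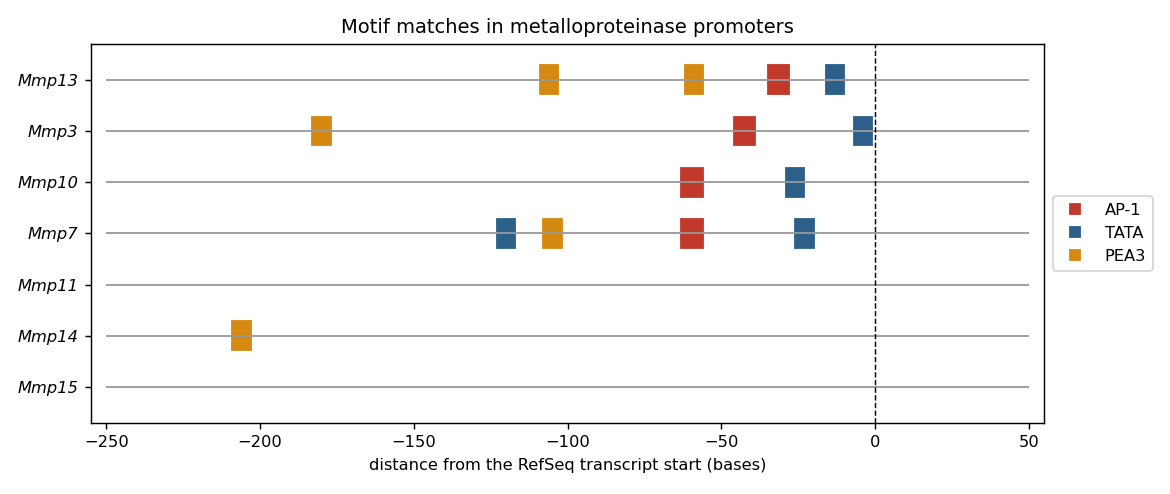
Motif matches in the promoters of 7 members; the horizontal axis is the distance in bases from the RefSeq transcript start (dashed line) and each box is 1 match to AP-1, TATAAA or the PEA3 core. Mmp13, Mmp3, Mmp10 and Mmp7 each have 1 AP-1 and 1 TATAAA match within the last 63 bases before the start, Mmp7 has a further TATAAA match at 123 bases, and neither motif is found in Mmp11, Mmp14 or Mmp15.

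In the Atxn1l set 9 of 21212 probe sets passed an adjusted p under 0.05 (limma with Benjamini-Hochberg adjustment), which is 0.0424% of those tested (0.0236% higher, 0.0189% lower). The targeted gene was the clearest of them, and it fell by 2.58 (SE 0.09) on the log2 scale. In the Atxn1 set 0 probe sets (0%) passed, and 258 (1.22%) had an unadjusted p under 0.05. Atxn1 itself differed by 0.01 there, and since its probe set may lie outside the deleted part this does not check the genotype. Lung markers were present throughout, with mean log2 levels of 12.64 to 12.72 over 7 alveolar type 2 genes on the Atxn1l arrays and 12.93 to 13.07 on the Atxn1 arrays. Xist, which marks females, was high on 3 of 4 Atxn1l knockouts and 2 of 4 of their wild types, and on 2 of 3 Atxn1 knockouts and 1 of 3 of their wild types. Knockout replicate 1 of the Atxn1l set and wild type replicate 3 of the Atxn1 set had the highest neutrophil marker means of their sets (10.27 and 10.68 over 9 genes, against at most 9.08 and 9.49 elsewhere). Neither array was the highest or the lowest for all members. Values without 1 of these arrays are given beside some of the members.

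The membrane-anchored metalloproteinases and Mmp2 form 1 activation chain: Mmp14 sits on the cell surface and, together with Timp2, opens the precursor of the gelatinase Mmp2. Mice lacking Mmp14 are known to form alveoli poorly. Mmp14 (Entrez 17387) had log2 levels of 11.47, 11.51, 11.53 and 11.48 in Atxn1l knockout replicates 1 to 4, and of 11.47, 11.30, 11.29 and 11.44 in their wild types. Knockout replicates 2 to 4 lay above all wild types, and replicate 1 lay just under the highest wild type, so the groups overlapped. The difference was 0.12 (SE 0.05, 95% interval -0.00054 to 0.24, adjusted p = 0.587 by limma), at 11.50 ± 0.03 against 11.38 ± 0.09 (SD, n = 4 each). With the Xist level as a covariate it was 0.12 and without knockout replicate 1 it was 0.13. Leaving out single arrays moved it between 0.09 (wild type replicate 3) and 0.15 (wild type replicate 1).

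In the Atxn1 set Mmp14 stood at 11.90, 11.87 and 11.87 in the knockouts and 11.84, 11.87 and 11.83 in the wild types. All 3 knockouts lay above all 3 wild types, the closest pair by less than the second decimal. The size was 0.03 (SE 0.05, adjusted p = 1.00), at 11.88 ± 0.02 against 11.84 ± 0.02 (SD, n = 3 each). Mmp14 was the 1 member of 10 whose groups did not overlap in this set, where 4.75% of all probe sets (2.85% higher, 1.9% lower) had groups that did not overlap. In the Atxn1l set 0 of 10 members were so separated, against 5.32% of all probe sets (2.76% higher, 2.56% lower).

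Mmp2 (Entrez 17390), which digests denatured collagen and the type IV collagen of basement membranes, had levels of 12.35, 12.47, 12.58 and 12.45 in the Atxn1l knockouts. Their wild types had 12.58, 12.22, 12.36 and 12.45. The groups overlapped, with only knockout replicate 3 above the highest wild type. The difference was 0.06 (SE 0.08, adjusted p = 0.889), and it ranged from 0.00 to 0.12 when single arrays were left out. Against the Atxn1 wild types Mmp2 was at 13.08, 13.06 and 12.99 in the knockouts and 13.08, 13.02 and 12.98 in the wild types, a difference of 0.02 (SE 0.05, adjusted p = 1.00) whose sign turned in 3 of 14 alternative fits.

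Mmp15 (Entrez 17388), a second membrane-anchored enzyme found in epithelium and endothelium, had levels of 10.44, 10.70, 10.70 and 10.58 in the Atxn1l knockouts and 10.69, 10.54, 10.51 and 10.55 in their wild types. Knockout replicate 1 was the lowest of the 8 arrays and replicates 2 and 3 the highest. The difference was 0.04 (SE 0.07, adjusted p = 0.940), and 0.09 without knockout replicate 1. The Atxn1 knockouts lay between 11.13 and 11.17 and their wild types between 11.00 and 11.27, so the knockouts fell inside the spread of the wild types. The difference was 0.01 (SE 0.07), and it was -0.07 without wild type replicate 3 and 0.07 without wild type replicate 1. Mmp16 (Entrez 17389), also membrane-anchored, differed by 0.05 in the Atxn1l set (7.85 ± 0.06 against 7.80 ± 0.05, SD, n = 4 each, adjusted p = 0.834). It differed by -0.04 in the Atxn1 set (8.07 ± 0.05 against 8.11 ± 0.07, SD, n = 3 each). Both comparisons overlapped, and single arrays moved the values between 0.03 and 0.07 and between -0.07 and -0.01.

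**Figure D2:**
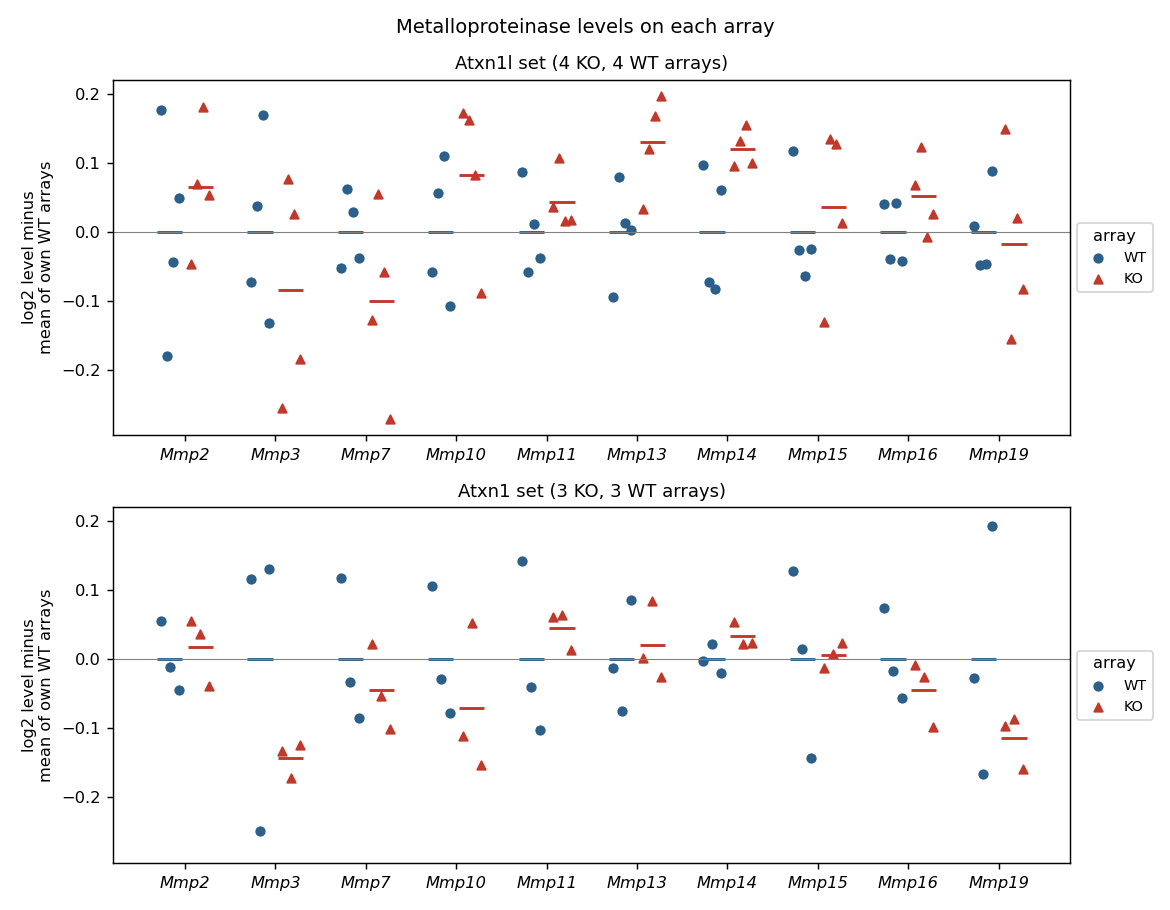
Log2 level of each metalloproteinase on each array minus the mean of the wild types of the same set (vertical axis, log2), with circles for wild types, triangles for knockouts and horizontal bars for group means; the upper panel holds the 8 arrays of the Atxn1l set and the lower panel the 6 of the Atxn1 set. In the upper panel 3 of 4 knockouts lie above all wild types for Mmp13 and Mmp14, and in the lower panel the 3 knockouts and 3 wild types of Mmp14 are apart by 0.03 on average.

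The collagenase Mmp13 and the stromelysins Mmp3 and Mmp10 are known to be low in quiet tissue and to be induced by injury and cytokines. In these arrays the probe sets of these genes were among the dimmest 25% in both sets. Mmp13 (Entrez 17386), which cuts fibrillar collagen, had levels of 6.43, 6.52, 6.57 and 6.59 in the Atxn1l knockouts and 6.30, 6.48, 6.41 and 6.40 in their wild types. Knockout replicates 2 to 4 lay above all wild types and replicate 1 lay between them. The difference was 0.13 (SE 0.06, 95% interval 0.01 to 0.25, adjusted p = 0.571), a 1.09-fold higher level at 6.53 ± 0.07 against 6.40 ± 0.07 (SD, n = 4 each). Its unadjusted p of 0.0427 was the 1 among the 10 members below 0.05, a level that 8.5% of all probe sets reached in this comparison. Leaving out single arrays moved it between 0.10 (wild type replicate 1) and 0.16 (knockout replicate 1), and it passed in neither case. Its Atxn1 set levels were 7.36, 7.44 and 7.33 against 7.35, 7.28 and 7.44, a difference of 0.02 (SE 0.06) with full overlap. Its sign turned in 4 of 13 alternative fits, as far as -0.06 with array weights.

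Mmp3 (Entrez 17392), stromelysin of fibroblasts that cuts proteoglycans and opens other precursors, had levels of 6.05, 6.38, 6.33 and 6.12 in the Atxn1l knockouts. The wild types had 6.23, 6.34, 6.47 and 6.17. Knockout replicates 1 and 4 lay below all wild types and the others within them. The difference was -0.08 (SE 0.09, adjusted p = 0.861), and -0.03 without knockout replicate 1. The Atxn1 knockouts were close together at 7.26, 7.22 and 7.27, and the wild types were at 7.51, 7.14 and 7.52. The knockouts lay between the low wild type replicate 2 and the other wild types. The difference of -0.14 (SE 0.10, adjusted p = 1.00) was the lowest of the 10 members in that set, and it was -0.27 without wild type replicate 2 and -0.08 without either of the others.

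Mmp10 (Entrez 17384), the stromelysin of epithelial cells, was at 6.73, 6.72, 6.64 and 6.47 in the Atxn1l knockouts and 6.50, 6.61, 6.66 and 6.45 in their wild types. Knockout replicates 1 and 2 lay above all wild types, and the difference was 0.08 (SE 0.07, adjusted p = 0.820). Without Atxn1 it was -0.07 (SE 0.08), with knockouts from 7.41 to 7.61 and wild types from 7.48 to 7.67. Leaving out single arrays moved these values between 0.05 (wild type replicate 4) and 0.14 (knockout replicate 4) in the Atxn1l set, and between -0.13 (knockout replicate 2) and -0.02 (wild type replicate 1) in the Atxn1 set. Mmp11 (Entrez 17385), which is activated by furin before it leaves the cell and is made by stroma during tissue remodelling, differed by 0.04 (SE 0.05, adjusted p = 0.877) in the Atxn1l set. Its levels there were 10.65 ± 0.04 against 10.60 ± 0.06 (SD, n = 4 each). Without Atxn1 it differed by 0.05 (SE 0.07), at 11.05 ± 0.03 against 11.00 ± 0.13 (SD, n = 3 each), where the 3 knockouts lay inside the range of the wild types. The value was 0.12 without wild type replicate 1 and -0.01 without wild type replicate 3.

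Mmp7 (Entrez 17393), matrilysin, is a small secreted enzyme of epithelia that acts on E-cadherin and on defensin precursors. Its levels were 6.88, 7.06, 6.95 and 6.74 in the Atxn1l knockouts and 6.96, 7.07, 7.04 and 6.97 in their wild types. Knockout replicates 1, 3 and 4 lay below all wild types and replicate 2 lay among them. The difference of -0.10 (SE 0.07, 95% interval -0.26 to 0.05, adjusted p = 0.754) was the lowest of the 10 members in this set. It was -0.04 without knockout replicate 4, where Mmp3 was lower, and -0.15 without knockout replicate 2. Atxn1 knockouts had 7.51, 7.44 and 7.39 against wild types of 7.61, 7.46 and 7.40, a difference of -0.04 (SE 0.07). Without wild type replicate 1, which had the highest level, it was 0.01, and with array weights 0.03.

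Mmp19 (Entrez 58223), a secreted enzyme that cuts basement membrane proteins, was at 8.90, 8.60, 8.77 and 8.67 in the Atxn1l knockouts and 8.76, 8.70, 8.71 and 8.84 in their wild types. Knockout replicate 1 was the highest array of the set and replicate 2 the lowest. The difference was -0.02 (SE 0.07, adjusted p = 0.974), was -0.07 without knockout replicate 1, and lay above 0 with the Xist covariate and without any of 3 other arrays (knockout replicates 2 and 4 and wild type replicate 4), so it had no settled direction. Atxn1 knockouts had 9.49, 9.50 and 9.42 against wild types of 9.56, 9.42 and 9.78. The knockouts lay within the wild types, of which replicate 3 was high. The difference was -0.11 (SE 0.09, adjusted p = 1.00) with that array and -0.02 without it. The arrays highest in Mmp19 were thus those of highest neutrophil marker mean in both sets. They also had the highest macrophage marker means of their sets (9.76 and 9.82, against at most 9.22 and 9.75 elsewhere). The part of leukocytes in the level of Mmp19 was not tested.

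**Figure D3:**
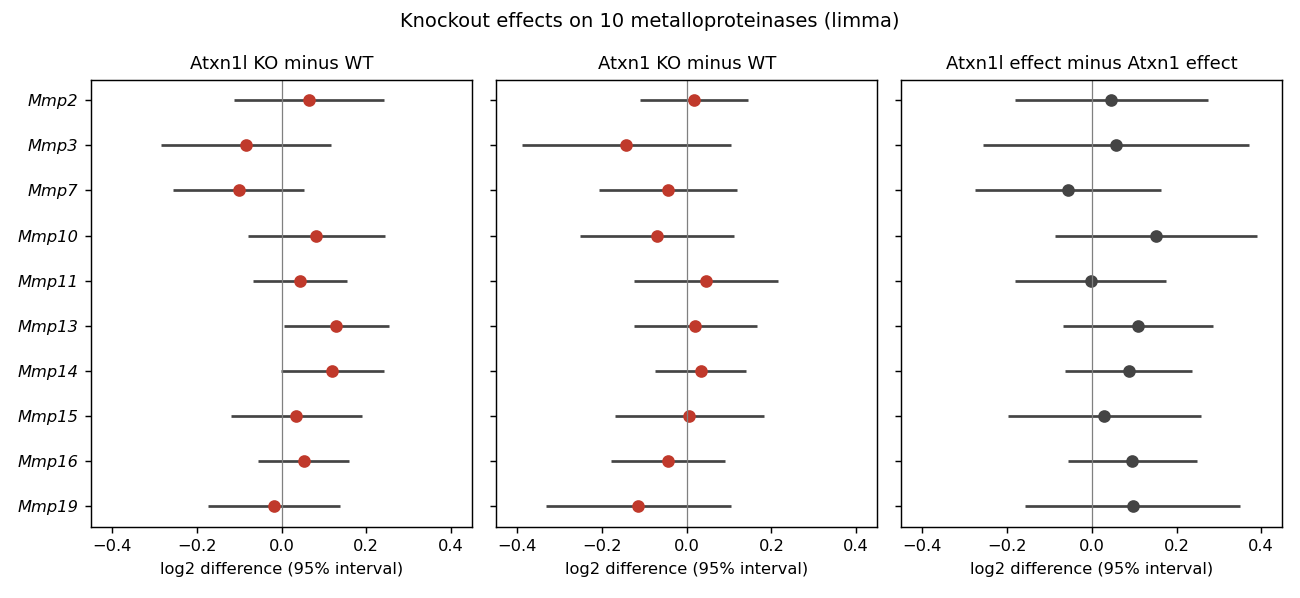
Log2 difference between knockout and wild type for each metalloproteinase in the Atxn1l set (left) and the Atxn1 set (middle), and the Atxn1l effect minus the Atxn1 effect (right), with 95% intervals of the limma fit as horizontal lines. Every point lies within 0.16 of 0, and the left interval of Mmp13 (0.01 to 0.25) is the 1 of 30 that leaves out 0.

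The effects of the knockouts were compared directly in 1 limma fit of the 14 arrays. The Atxn1l effect lay above the Atxn1 effect for 8 of 10 members, with a median difference of 0.07 against 0.01 over all probe sets. The largest was 0.15 for Mmp10 (SE 0.11, 95% interval -0.09 to 0.39), followed by 0.11 for Mmp13 (SE 0.08), and the lowest was -0.06 for Mmp7 (SE 0.10). The share above 0 was 53.5% over all probe sets. None of the 10 passed (limma, adjusted p = 1.00 for each), against 2 of all probe sets (0.00943%), Atxn1l and Chst4. No member had an unadjusted p under 0.05, which 3.24% of all probe sets had. The median change of the 10 was 0.05 in the Atxn1l knockout and -0.02 in the Atxn1 knockout, against 0.00263 and -0.00377 for all probe sets. In the Atxn1l knockout 51.3% of all probe sets lay above 0, and in the Atxn1 knockout 47.3%. The Atxn1 median changed sign in 3 of 14 alternative fits: 0.02 with array weights, 0.01 without the dimmest 25% of probe sets and 0.01 without wild type replicate 1.

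Between arrays of a group the members varied about as much as other probe sets. The median of their pooled standard deviations was 0.10 in the Atxn1l set and 0.09 in the Atxn1 set, against 0.09 and 0.09 for all probe sets. Mmp3 varied most in both sets (0.15 and 0.15). Mmp14 varied least in the Atxn1 set (0.02, a spread reached or undercut by 1.10% of probe sets) and Mmp16 least in the Atxn1l set (0.05). In the Atxn1 set wild type replicate 1 was the highest array for 5 members, Mmp7, Mmp10, Mmp11, Mmp15 and Mmp16. Wild type replicate 3 was the highest for Mmp3, Mmp13 and Mmp19 and the lowest for Mmp2, Mmp11, Mmp14 and Mmp15. In the Atxn1l set no array was highest for more than 3 members.

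Levels minus the mean of their group were then set against each other over the 14 arrays, which describes how members varied together among mice of 1 genotype. Arrays of a set share their normalization, and the signal quality of an array can move many genes at once. Of the 45 pairs of members 28 had a Pearson r above 0, 11 above 0.5 and 1 below -0.5. Mmp11 with Mmp16 had the highest r (0.87, Spearman rho 0.84), followed by Mmp2 with its activator Mmp14 (0.83, rho 0.81) and Mmp7 with Mmp10 (0.71, rho 0.68). Mmp15 with Mmp19 had the lowest (-0.58, rho -0.35). The collagenase Mmp13 had an r of -0.46 with Mmp14. All 14 arrays entered these pairs, among them Atxn1 wild type replicate 1, the highest of its set for Mmp7, Mmp10, Mmp11, Mmp15 and Mmp16. The part of that array in the r of the pairs was not tested.

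**Figure D4:**
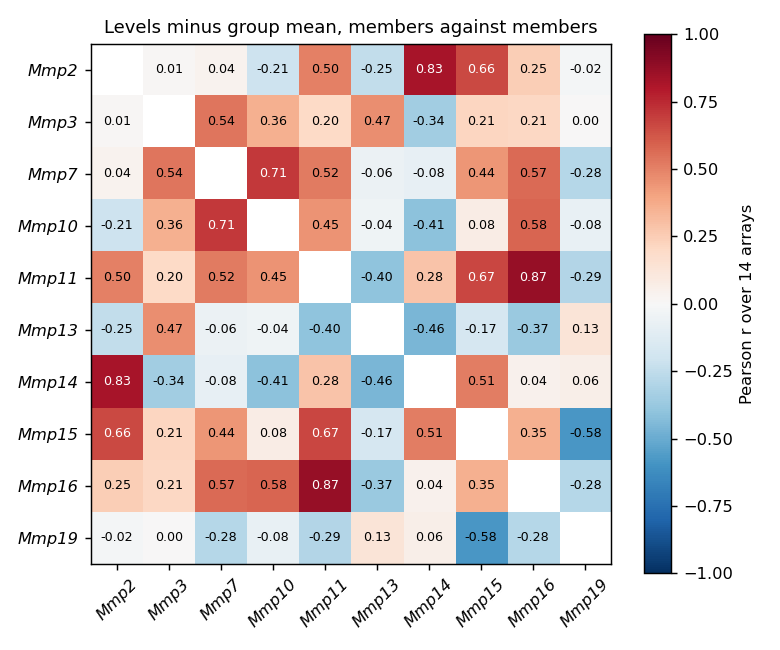
Pearson r between the 10 metalloproteinases over 14 arrays, from log2 levels minus their group mean, with the value printed in each cell and colour from blue (-1) to red (1). Mmp2 and Mmp14 (0.83) and Mmp11 and Mmp16 (0.87) are the darkest red cells, and Mmp15 with Mmp19 (-0.58) is the darkest blue.

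Among all named genes the most alike to each member was found by the same measure over the 14 arrays. Mmp14 was most like Afap1, an actin filament protein (r = 0.96), and Itga5, the fibronectin receptor subunit (r = 0.96). Mmp2 was most like Rsu1 (r = 0.96) and the endothelial factor Sox7 (r = 0.94). Mmp15 was most like Cdk18 (r = 0.96) and Amotl1 (r = 0.95). For these 3 members r stayed at 0.90 to 0.96 without the 2 arrays farthest from the median. Mmp19 was most like Fcgr1 (r = 0.93, rho 0.67) and Siglece (r = 0.91, rho 0.79), both surface proteins of myeloid cells. Its r with them was 0.83 and 0.81 without the arrays of highest neutrophil and macrophage marker means. The remaining members were most like Olfr23 and Prph2 (Mmp3), Cilp and Npsr1 (Mmp7), Dlec1 and BC048671 (Mmp10), Olfr155 and Kcnc4 (Mmp11), Cd300ld3 and H2-Oa (Mmp13), and Car15 and Cnpy1 (Mmp16), with r from 0.84 to 0.98. With the whole array to choose from, some genes reach a high r over 14 arrays whatever the member.

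The chromosome 9 cluster holds 4 of the members among 10 metalloproteinase genes. In chromosomal order these were Mmp13, Mmp12, Mmp1b, Mmp3, Mmp1a, Mmp10, Mmp8, Mmp27, Mmp20 and Mmp7. In the Atxn1l knockout 5 of the 10 lay above 0 and 5 below. Mmp13 (0.13) stood beside the macrophage elastase Mmp12 (0.27, SE 0.08), and Mmp3 (-0.08) beside Mmp1a (-0.09). Mmp10 (0.08) stood beside the neutrophil collagenase Mmp8 (1.34, SE 0.41), which had 0.87 without knockout replicate 1, the array of highest neutrophil marker mean. In the Atxn1 knockout Mmp8 had -0.37 (SE 0.79), and 0.67 without wild type replicate 3. None of the 10 passed in either knockout (limma, adjusted p from 0.415 to 0.993 in the Atxn1l set).

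The inhibitors of the members were measured on the same arrays. Of 7 inhibitor genes 4 lay above 0 and 3 below without Atxn1l (median 0.04), and none passed. Timp2, which binds both Mmp14 and Mmp2, differed by 0.00 (SE 0.06) in the Atxn1l knockout and by -0.01 (SE 0.05) in the Atxn1 knockout. Timp3, the inhibitor held in the matrix, differed by 0.06 (SE 0.05) and 0.15 (SE 0.09), and Reck, the membrane-anchored inhibitor of Mmp2 and Mmp14, by -0.08 (SE 0.10) and 0.05 (SE 0.06). Both Reck values turned sign with 1 array left out, to 0.02 without Atxn1l knockout replicate 1 and to -0.00134 without Atxn1 wild type replicate 3. Timp1 had 0.24 (SE 0.16, adjusted p = 0.743) in the Atxn1l knockout, of which 0.04 was left without knockout replicate 1. Without Atxn1, 4 of 7 inhibitors lay above 0, with a median of 0.04.

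Activators and surface partners lay above 0 in 10 of 13 genes without Atxn1l (median 0.06), and none passed. Those of smallest p were 0.24 for the tissue plasminogen activator Plat (SE 0.09, adjusted p = 0.498), 0.18 for Cd44, the hyaluronan receptor that anchors metalloproteinases at the cell surface (SE 0.06, adjusted p = 0.493), and 0.17 for urokinase, Plau (SE 0.05, adjusted p = 0.366). Lrp1, the endocytic receptor that clears proteases, had 0.18 (SE 0.09). All 4 knockouts lay above all wild types for Plau and 3 of 4 for Plat and Cd44. Furin, which opens Mmp11, Mmp14, Mmp15 and Mmp16, differed by 0.10 (SE 0.06). Without Atxn1, 11 of 13 lay above 0, with a median of 0.04 and none past the threshold, and Plau had -0.05 and Plat 0.00. The convertase Pcsk6 had 0.12 (SE 0.05) there.

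Matrix substrates lay above 0 in 14 of 17 genes in the Atxn1l knockout (median 0.06) and in 13 of 17 in the Atxn1 knockout (median 0.01), and none passed. In the Atxn1l knockout the proteoglycan Vcan had 0.14 (SE 0.06, adjusted p = 0.559), Cdh1, the E-cadherin cut by Mmp7, 0.17 (SE 0.08) and Col1a2, a chain of fibrillar collagen, 0.11 (SE 0.07). Without Atxn1, the laminin chains Lama5 and Lamc1 had 0.08 (SE 0.06) and 0.07 (SE 0.05), and the collagen-binding proteoglycan Dcn had -0.17 (SE 0.15), or -0.04 without wild type replicate 3.

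Of 17 transcription factors listed for metalloproteinase promoters, with Cic counted among them, 12 lay above 0 without Atxn1l (median 0.03). Etv4, the Ets factor also called PEA3, rose by 0.48 (SE 0.05, adjusted p = 0.0130), from 7.94 ± 0.04 to 8.42 ± 0.06 (SD, n = 4 each), and was the 1 gene of the list past the threshold. It passed in 12 of 16 alternative fits (adjusted p from 0.00523 to 0.0880), and it is a gene the earlier results of these arrays had already pointed to. Beside it, the members with a PEA3 match in the promoter had 0.13 (Mmp13), 0.12 (Mmp14), -0.08 (Mmp3) and -0.10 (Mmp7), and those without had 0.08 (Mmp10), 0.04 (Mmp11) and 0.04 (Mmp15). Cic, which encodes Capicua, had 0.14 (SE 0.05, adjusted p = 0.527) and Cebpb 0.11 (SE 0.05, adjusted p = 0.556). Without Atxn1, 13 of 17 lay above 0, with a median of 0.04 and none past the threshold, and the Ets factors Etv1, Etv5 and Etv4 had 0.17 (SE 0.11), 0.13 (SE 0.08) and 0.09 (SE 0.07).

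**Figure D5:**
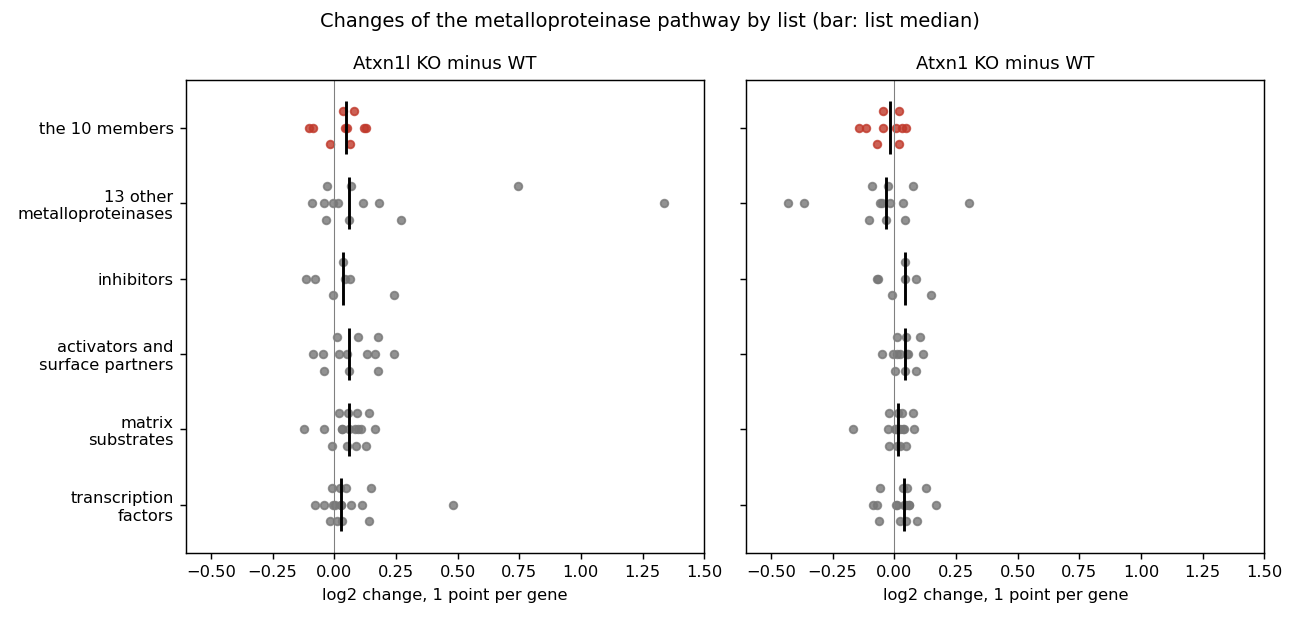
Log2 change of each gene (points) and the median of each list (bars) for the 10 members, 13 other metalloproteinases, inhibitors, activators and surface partners, matrix substrates and transcription factors, in the Atxn1l knockout (left) and the Atxn1 knockout (right). The 10 members lie between -0.10 and 0.13 on the left and between -0.14 and 0.05 on the right. Points far from 0 on the left are Mmp8 (1.34), Mmp9 (0.74, or 0.37 without knockout replicate 1) and the transcription factor Etv4 (0.48). Those on the right are Mmp9 (-0.43), Mmp8 (-0.37) and Mmp12 (0.30). With a single array left out, the values on the right rose as high as 0.18 for Mmp9 and 0.67 for Mmp8, and that of Mmp12 stayed above 0.

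Marker lists were read for the cells that make the members. Of 9 fibroblast genes 3 lay above 0 in the Atxn1l knockout (median -0.04) and 5 in the Atxn1 knockout (median 0.01). In the same order, 4 and 6 of 6 myofibroblast and smooth muscle genes lay above 0 (medians 0.03 and 0.03). For 5 pericyte genes these counts were 3 and 5 (medians 0.00352 and 0.04), and for 5 mesothelial genes 3 and 4 (medians 0.04 and 0.11). Of 8 endothelial genes 2 and 7 lay above 0 (medians -0.03 and 0.04), of 7 alveolar type 2 genes 2 and 6 (medians -0.03 and 0.02), of 6 alveolar type 1 genes 2 and 6 (medians -0.03 and 0.05), and of 7 airway epithelial genes 3 and 0 (medians -0.01 and -0.03). None of the genes of these lists passed. Macrophage genes lay above 0 in 9 of 9 in the Atxn1l knockout (median 0.68), with array means of 9.09 to 9.76 in the knockouts against 8.57 to 8.66 in the wild types, and 2 of them passed. Without Atxn1, 6 of 9 macrophage genes lay above 0 (median 0.04) and none passed. Neutrophil genes lay above 0 in 9 of 9 (median 0.75) and in 0 of 9 (median -0.23). Their array means were 8.78 to 10.27 against 8.24 to 8.89 in the Atxn1l set and 9.27 to 9.49 against 9.05 to 10.68 in the Atxn1 set. The 10.27 was knockout replicate 1, and the other Atxn1l knockouts had 9.08, 8.91 and 8.78. The 10.68 was wild type replicate 3, and the other Atxn1 wild types, at 9.20 and 9.05, lay below all knockouts of that set. The 9 cartilage and bone genes, a possible source of Mmp13 in a dissection, had array means of 7.11 to 7.29 in the Atxn1l knockouts and 7.03 to 7.25 in their wild types. The 5 heart genes varied more between arrays. Their means were 9.02 to 9.46 in the Atxn1l knockouts and 8.29 to 9.81 in their wild types, and 9.69 to 10.45 and 9.44 to 10.71 in the Atxn1 set. The part of any of these cells in the members' levels was not tested.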

How the data were processed

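Total RNA (100 ng per array) from lungs was measured on Affymetrix mouse Gene ST 1.0 arrays. Per the labels' design text, the authors deposited log2 levels from RMA, run apart on the 8 Atxn1l and the 6 Atxn1 arrays; the submitters' processing notes name RMA and limma. RMA subtracts background, equalizes array distributions and summarizes probes, which can compress changes of dim probe sets. No detection call was used. Probe sets carry Entrez numbers; 20656 were named through RefSeq (GRCm38.p6) and 53 through the platform table. Mmp15 was named through RefSeq, and 179 of 179 list memberships were matched.

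Changes were fitted with limma 3.58.1 (R 4.3.3, lmFit and eBayes, no covariate, two-sided) over all 21212 probe sets of a set. Calls used a Benjamini-Hochberg adjusted p under 0.05. The difference between knockouts used 4 group means over 14 arrays. The fit was tested on simulated data. Groups came from sample titles. P-values measure the spread between these arrays, whose number limits the precision. Members and lists were chosen with earlier results of these data known. Named were all members, up to 3 genes of smallest p of each pathway list in either knockout, the targeted genes and the 2 genes most like each member; Timp2, Furin, Lrp1 and Chst4 were added after their values were seen. Same-numbered knockout and wild-type arrays deviated together with r of 0.04 to 0.38 (Atxn1l set) and -0.42 to 0.42 (Atxn1 set), so the number was not taken as a pairing. Protein sequences were not analysed here.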

Additional observations from a re-analysis of the deposited data

Results flagged for a closer look

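Array values of 2 named genes lay far from the rest of their group of 4 by Dixon's test at 95%, and both were on Atxn1l knockout replicate 1. Timp1 was high there at 9.17, against 8.29 to 8.43 on the other knockouts. Etv1 was low at 10.93, against 11.21 to 11.22. None of the 10 metalloproteinases had such an array in the Atxn1l set, and the smaller groups of the Atxn1 set were not tested. The test was run on 74 groups of 37 genes, and about 1 in 20 groups would be picked out by noise alone.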

How the results depend on the processing

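None of the 10 members passed in any alternative fit: 16 for the Atxn1l knockout (lowest adjusted p = 0.396, Mmp13 with array weights), 14 for the Atxn1 knockout (lowest adjusted p = 0.138, Mmp19 with array weights) and 22 for the difference (lowest adjusted p = 0.265, Mmp13 with array weights). The median change of the members stayed between 0.02 and 0.07 in the Atxn1l knockout and between -0.04 and 0.02 in the Atxn1 knockout. Direction held in all alternatives for 9 of 10 members in the Atxn1l set, all but Mmp19, and for Mmp3, Mmp10, Mmp14 and Mmp19 in the Atxn1 set. The number of probe sets called in the Atxn1l knockout was 9, was 2 with the replicate block, and ran from 2 to 25 when single arrays were left out. In the Atxn1 knockout it was 0, and 1 with array weights. For the difference it was 2, was 1 with the replicate block, 4 with array weights and 1 to 2 without single arrays. The cause was not tested. The replicate block changed no call of a member, and 3 of 7 same-numbered pairs correlated best with their own number. The filter on dim probe sets removed Mmp3, Mmp10 and Mmp13 in the Atxn1l set and Mmp7 as well in the Atxn1 set, so 7 and 6 of 10 passed it, and a change in these dim probe sets may be understated.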
